A study of Mus musculus with 4 samples.

Results

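Transcripts of the semaphorin, netrin and Slit families and of their receptors were followed in whole embryonic mouse skin. The genes were taken by name: every probe set whose platform symbol starts with Sema, Plxn, Unc5, Slit or Robo followed by a number or letter, without the Slitrk genes, together with Nrp1, Nrp2, Ntn1, Ntn4, Dcc and Neo1. This gave 114 of 45037 probe sets and 49 of 18193 named genes. Of these genes 3 share only the name: Unc50 and Unc5cl, which encode no netrin receptor, and Plxna4os1, an antisense transcript. The other 46 genes have 109 probe sets and are called guidance genes here. They were singled out because Unc5 and semaphorin genes stood among the changed genes of this same comparison, so that all values below are a description and the p-values, taken from a fit over the whole array, are not independent support for the choice.

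The arrays held skin of 2 mutant embryos and of 2 control littermates at E14.5, with 1 embryo per array. The mutants carried KRT14-Cre and 1 Ctnnb1(Ex3)fl allele. The KRT14 promoter drives Cre in keratinocytes, where it removes the exon of Ctnnb1 that holds the degradation signals of beta-catenin, so that the Wnt effector is stabilised in the epithelium and not in the dermis. The genotype of the controls is not given beyond control littermate, and epidermis and dermis were dissected together.

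Semaphorins are ligands that turn or halt growing axons, migrating cells and vessels. Most secreted class 3 members bind a neuropilin, which pairs with an A plexin to carry the signal, and the membrane-bound classes mostly bind plexins directly. Netrins attract through Dcc and Neo1 and repel through Unc5 receptors, which also act as dependence receptors that can start cell death when no ligand is bound. Slits repel cells that carry Robo receptors. In skin these cues are known from the patterning of sensory nerves and vessels, and several are made by the epithelium itself.

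Array medians ran from 27.7 to 31.95 in signal. Log2 signals gave r = 0.984 for the mutant pair, 0.982 for the control pair and 0.962 to 0.968 for a mutant with a control, each over probe sets, which do not stand for replicates. Ctnnb1 read 6197 and 5773 in the mutants and 6302 and 5335 in the controls. It is unknown whether the probes fall in the deleted exon, so these levels do not check the labels. All 5 suprabasal keratinocyte markers (Krt1, Krt10, Krtdap, Lor, Sbsn) were lower in mutant skin and all 5 hair shaft and matrix markers (Krt33a, Krt34, Krt35, Hoxc13, Msx2) higher. The control means of these hair markers, 5.12 to 20.8, lay under the mean signal of 31.1 needed for testing. They were tested through their mutant signal alone, so their calls are given without weight. The summed signal of 8 cartilage markers was 8200 and 414 in mutant replicates 1 and 2 and 187 and 163 in control replicates 1 and 2. Mutant replicate 1 thus stood apart on this sum. It did not on Sox9 of this list, which read 135 and 106 in the mutants and 24.1 and 19.5 in the controls. Sox9 too was tested through its mutant signal alone. Every change is read against the total signal of its array. For 24 probe sets of spiked poly-A RNA the median log2 difference of mutant minus control was -1.04, and a scale set by them would raise every log2 change by 1.04.

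Among the guidance genes the netrin receptors Unc5c and Unc5b rose most and the semaphorin Sema6d fell most. A gene was read by its probe set of highest mean signal, tested where that mean reached 31.1, and counted as changed at a limma adjusted p under 0.05 over all tested probe sets. Of 46 guidance genes 40 were tested, and 4 rose (10%, against 4.96% of all named genes tested) while 4 fell (10%, against 3.78%). The 4 that rose were Unc5c, Unc5b, Plxnc1 and Nrp2, and the 4 that fell were Sema6d, Ntn4, Sema3d and Ntn1. Among 22 tested ligands 4 fell and 0 rose, and among 18 tested receptors and co-receptors 4 rose and 0 fell. The difference between ligands and receptors was not tested, and their median log2 fold changes were -0.20 and -0.06. The median over all 40 was -0.06, against -0.02 over all named genes. The groups did not overlap for 28 of the 40 genes (70%), against 56.7% of all named genes tested. Of the 72 tested guidance probe sets 17 passed, 10 higher (among them 1 of Unc5c that reached the filter through the mutants alone) and 7 lower, where 7.03% of all tested probe sets passed, 4.1% higher and 2.93% lower, and 52 had groups that did not overlap, against 54.3% of all tested probe sets. With values averaged over all tested probe sets of a gene, the same 8 passed with 4 more: the ligand Sema3a rose, and Sema3f, Sema4d and the co-receptor Nrp1 fell. This was a separate fit with its own adjustment, and the share of all named genes that passed in it is not given here. Sema4d has 1 tested probe set, so its log2 fold change of -0.56 was the same in both fits (limma adjusted p = 0.0874 and 0.0485).

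**Figure D1:**
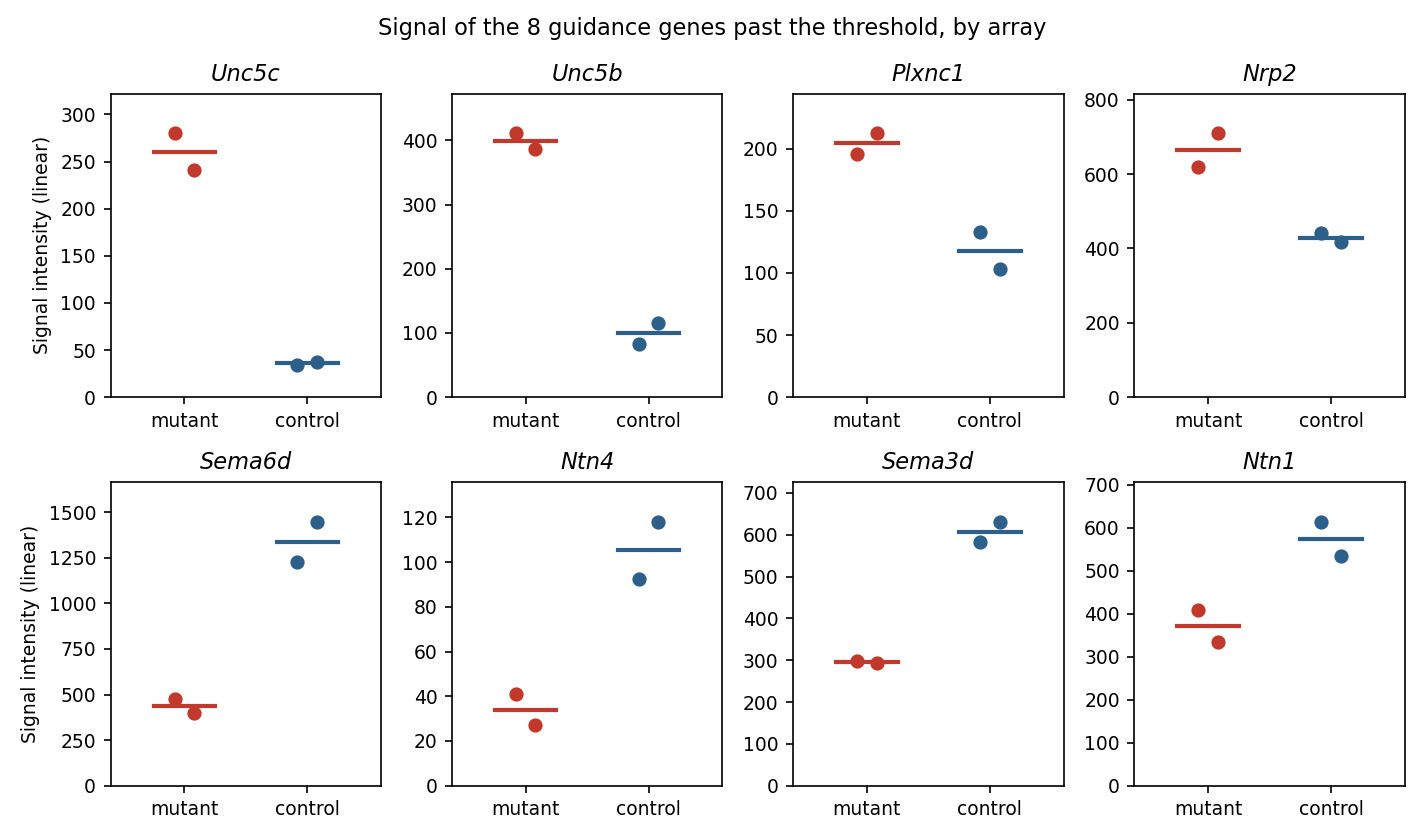
Signal intensity on a linear axis from 0 of the 8 guidance genes past the threshold, with 1 point per array, 2 mutant arrays on the left and 2 control arrays on the right of each panel, and a bar at each group mean. Both mutants lie above both controls for Unc5c, Unc5b, Plxnc1 and Nrp2 and below them for Sema6d, Ntn4, Sema3d and Ntn1, on the scale of the whole array (on a poly-A spike scale Sema3d and Ntn1 would not be lower).

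The netrin receptors Unc5c and Unc5b had the highest fold changes of the family. Unc5c read 280.1 and 241 in mutant skin and 34.6 and 37.0 in control skin. Its lowest mutant array was thus far above its highest control array. The ratio of the means, 261 ± 27.7 in mutants and 35.8 ± 1.64 in controls (SD, n = 2 each), was 7.28, and the log2 fold change was 2.62 (SE 0.16, limma adjusted p = 0.000579). Its other tested probe set gave 216 and 170.3 in mutants and 21.2 and 13.5 in controls. That probe set had a control mean of 17.3, under the filter, and was tested through its mutant signal alone, so its log2 fold change of 3.01 is given without weight. Unc5b read 411 and 386 in mutant skin and 82.5 and 116 in control skin. Its means of 399 ± 17.9 in mutants and 99.2 ± 23.5 in controls (SD, n = 2 each) differed by a ratio of 4.02 and a log2 fold change of 1.94 (SE 0.18, limma adjusted p = 0.00207). Its other probe set, at 164 and 178 in mutants and 37.7 and 37.9 in controls, gave 1.97 (limma adjusted p = 0.00156). Both genes kept their calls without any 1 of the 4 arrays, with log2 fold changes of 2.52 to 2.73 for Unc5c and 1.72 to 2.17 for Unc5b.

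The other members of that family were dim. Unc5a, a netrin receptor of neurons, read 16.3 and 17.6 in mutants and 21.1 and 14.7 in controls. Unc5d read 23.3 and 12.8 in mutants and 23.4 and 28.1 in controls. Neither reached the filter, so neither was tested. By the probe set of highest mean signal Unc5c and Unc5b lay above the filter in both groups, as did all 8 called genes, and none of them entered the test through 1 group alone.

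The stretch of 250 bases before the transcription start is shown for both Unc5 genes that rose and for Nrp2, to set their promoters side by side with the factors through which beta-catenin acts. Beta-catenin binds DNA through TCF and LEF factors. The sequences are RefSeq promoters on GRCm38.p6, 5′ to 3′: Unc5c at chr3:141465314-141465563 on the + strand, Unc5b at chr10:60831582-60831831 on the - strand and Nrp2 at chr1:62703067-62703316 on the + strand. Capitals mark a match to the TCF and LEF motif.
Unc5c: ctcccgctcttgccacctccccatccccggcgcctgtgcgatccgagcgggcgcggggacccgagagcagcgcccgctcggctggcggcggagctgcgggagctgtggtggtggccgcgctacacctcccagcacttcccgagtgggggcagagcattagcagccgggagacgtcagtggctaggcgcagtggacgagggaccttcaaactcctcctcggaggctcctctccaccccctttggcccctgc
Unc5b: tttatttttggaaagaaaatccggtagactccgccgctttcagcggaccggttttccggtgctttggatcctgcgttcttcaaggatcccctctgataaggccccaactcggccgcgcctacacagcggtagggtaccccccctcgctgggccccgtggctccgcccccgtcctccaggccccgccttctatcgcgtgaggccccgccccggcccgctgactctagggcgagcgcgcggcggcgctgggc
Nrp2: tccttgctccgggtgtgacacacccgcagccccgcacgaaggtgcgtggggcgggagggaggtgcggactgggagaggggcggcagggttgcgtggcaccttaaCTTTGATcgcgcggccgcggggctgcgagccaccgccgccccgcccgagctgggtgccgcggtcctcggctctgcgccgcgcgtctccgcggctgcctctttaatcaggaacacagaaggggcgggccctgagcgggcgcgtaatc
The motif was searched as CTTTGAA and CTTTGAT on both strands in the 300 bases from 250 before to 50 after the start, and no other motif was searched. It occurred in 8.65% of 32851 promoters of the table. Among the 8 called genes 7 had a promoter in the table and 1, Nrp2, held the motif, starting 146 bases before the start. Among all guidance genes 37 had a promoter there, and 2 held the motif, Nrp2 and Sema3e. Such a match is a description of letters in this window. The printed stretches hold 71.2% G and C in Unc5c, 66.8% in Unc5b and 72.4% in Nrp2, against a median of 52.4% over all promoters of the table.

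Dcc and Neo1, the netrin receptors of attraction, did not pass. Dcc read 59.7 and 50.9 in mutants and 39.7 and 33.0 in controls, with a log2 fold change of 0.52 (limma adjusted p = 0.205). Neo1 read 560 and 569 in mutants and 512 and 417 in controls, with a log2 fold change of 0.28 (limma adjusted p = 0.254). On these probe sets the groups do not overlap for either gene, as for 56.7% of all named genes tested. A second tested Dcc probe set read 38.4 and 31.5 in mutants and 37.3 and 17.5 in controls, and its groups overlap. A dim, untested Dcc probe set had both mutants below both controls. Of the other tested Neo1 probe sets, one had both mutants above both controls and one had groups that overlap.

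Of the netrin ligands Ntn4 and Ntn1 fell. Ntn3 and Ntn5 were under the filter, and the membrane-anchored Ntng1, read among the partners, did not pass (log2 fold change 0.49, limma adjusted p = 0.213). Ntn4, a laminin-related netrin found in basement membranes, read 41.0 and 27.1 in mutants and 92.3 and 118 in controls, a log2 fold change of -1.45 (SE 0.24, limma adjusted p = 0.0182). Its second probe set was too dim to be tested and read 1.41 and 2.35 in mutants and 29.5 and 22.2 in controls. Ntn1, the secreted netrin that guides commissural axons, read 408 and 334 in mutants and 614 and 534 in controls, a log2 fold change of -0.62 (SE 0.14) that passed narrowly (limma adjusted p = 0.0497). On the brightest probe sets the mutants lay below the controls for both genes. The second Ntn1 probe set was too dim to be tested. It read 31.8 and 27.2 in mutants and 34.8 and 26.3 in controls, and its groups overlap. The call of Ntn4 ended without control replicate 2 (limma adjusted p = 0.0537). That of Ntn1 ended without control replicate 1 (limma adjusted p = 0.0991), without control replicate 2 (limma adjusted p = 0.0545) and without mutant replicate 2 (limma adjusted p = 0.203).

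Of the neuropilins Nrp2 rose and Nrp1 did not pass. Nrp2, the co-receptor that Sema3f prefers, read 618 and 710.0 in mutants and 442 and 416 in controls, a log2 fold change of 0.62 (SE 0.12, limma adjusted p = 0.0296). Its other tested probe sets gave log2 fold changes of 1.39 (limma adjusted p = 0.00408), 0.94 (limma adjusted p = 0.00952) and 0.64 (limma adjusted p = 0.186), the last with a control mean under the filter. The probe set with 1.39 read 426 and 382 in mutants and 133 and 167 in controls. All 4 thus had both mutants above both controls, and the sizes differed. Nrp1, the co-receptor of Sema3a and of the vascular growth factor VEGF, read 1379 and 1308 in mutants and 1615 and 1597 in controls. Its log2 fold change was -0.26 (limma adjusted p = 0.182), and its 4 tested probe sets ran from -0.50 to -0.26 with none passing alone. The log2 ratio of Nrp2 to Nrp1 within an array, a pair chosen after its values were seen, was taken with the offset of 7.7 added to each signal. Rescaling of whole arrays would change this ratio only through the offset. It was higher in mutants by 0.87 (exact two-sided permutation p = 0.333, the lowest that 2 against 2 arrays allow). The call of the brightest Nrp2 probe set ended without mutant replicate 2 (limma adjusted p = 0.149) and without control replicate 2 (limma adjusted p = 0.0760).

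Of 9 plexin genes, all tested, 1 rose and 8 did not pass. Plxnc1, the receptor of Sema7a, read 196 and 213 in mutants and 133 and 103 in controls, a log2 fold change of 0.76 (SE 0.17, limma adjusted p = 0.0443). A second probe set, at 135 and 144 in mutants and 67.3 and 62.6 in controls, gave 1.02 (limma adjusted p = 0.0143), and the last tested one gave 0.99 (limma adjusted p = 0.0553), with a control mean under the filter. Both mutants lay above both controls on all 3. The call of the brightest probe set ended without mutant replicate 1 (limma adjusted p = 0.115), mutant replicate 2 (limma adjusted p = 0.186) or control replicate 2 (limma adjusted p = 0.0970). Its ligand gene Sema7a, which encodes the GPI-anchored semaphorin, read 96.4 and 68.0 in mutants and 48.6 and 42.2 in controls (log2 fold change 0.74, limma adjusted p = 0.105).

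The A and B plexins had negative log2 fold changes throughout and none passed. They ran from -0.56 to -0.06 over the 4 A plexins, receptors of class 3 and class 6 semaphorins, and from -0.52 to -0.06 over the 3 B plexins, receptors of class 4. Plxna2 came nearest to the threshold, with 142 and 109 in mutants and 210.4 and 166 in controls (limma adjusted p = 0.139). Plxnd1, the vascular receptor of Sema3e, read 424 and 340 in mutants and 368 and 370 in controls, and its groups overlap. Under median centring and without mutant replicate 1 the sign of Plxnd1 turned, and without mutant replicate 2 that of Plxnb2.

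**Figure D2:**
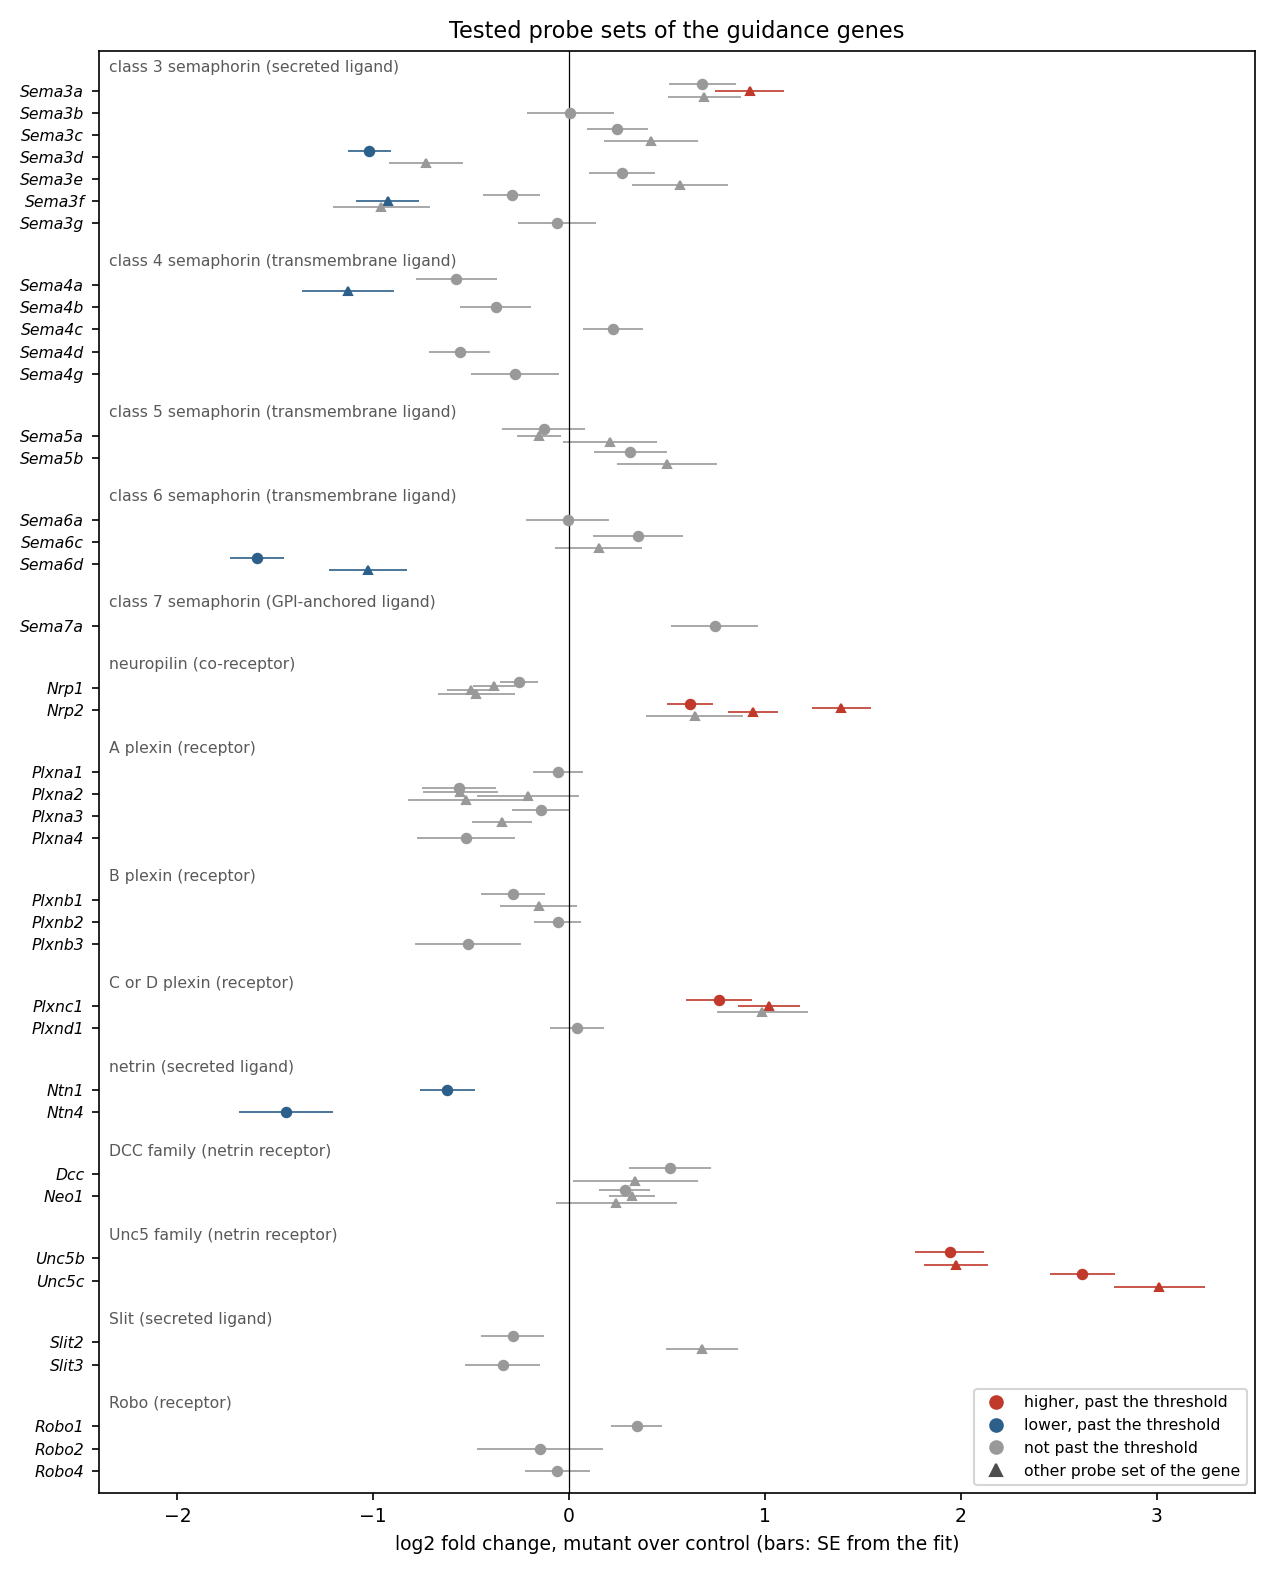
Log2 fold changes of mutant over control skin for the 72 tested probe sets of the 40 tested guidance genes, grouped by family, with bars of 1 SE from the fit. Circles are the probe set of highest mean signal, triangles the other probe sets, red and blue those past the threshold in either direction: Unc5c and Unc5b lie farthest to the right and Sema6d farthest to the left, on the scale of the whole array.

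Of 7 class 3 semaphorins, the secreted ligands, 1 fell and 0 rose by the probe set of highest mean signal. Sema3d, a repellent of this class, read 297 and 293 in mutants and 582 and 631 in controls. Its mutant arrays agreed closely and lay far below both controls. The means of 295 ± 3.18 in mutants and 607 ± 34.5 in controls (SD, n = 2 each) gave a log2 fold change of -1.02 (SE 0.11, limma adjusted p = 0.00382). Its second probe set gave -0.73 and did not pass (limma adjusted p = 0.0738). Sema3d kept its call without any 1 array, at -1.08 to -0.96.

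Sema3f, the main ligand of Nrp2, had 3 tested probe sets that disagreed in their calls. The brightest, which by its suffix may share sequence with other transcripts, read 159 and 180 in mutants and 194 and 226 in controls (log2 fold change -0.29, limma adjusted p = 0.293). The second read 126 and 104 in mutants and 241 and 208 in controls and passed, with -0.93 (limma adjusted p = 0.0214). The third gave -0.96 (limma adjusted p = 0.0741). All 3 had both mutants below both controls.

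Sema3a, the founding repellent of sensory axons, was the one class 3 ligand with a probe set that passed as higher. Its brightest probe set read 415 and 376 in mutants and 286 and 207 in controls and did not pass (log2 fold change 0.68, limma adjusted p = 0.0657), though it passed without control replicate 1 (limma adjusted p = 0.0113). Its second read 350 and 335 in mutants and 211 and 148 in controls and passed, with 0.92 (limma adjusted p = 0.0306). The last of its probe sets gave 0.69 (limma adjusted p = 0.0818). In the reference order of protein-coding genes Sema3a and Sema3d are direct neighbours on chromosome 5. Their log2 ratio of Sema3a to Sema3d within an array, again a pair chosen after its values were seen, was higher in mutants by 1.70 (exact two-sided permutation p = 0.333, the lowest possible).

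Sema3c, Sema3e, Sema3b and Sema3g did not pass. Sema3c, a ligand with roles in vessel and heart development, read 1171 and 1064 in mutants and 1092 and 809 in controls, and its groups overlap. Sema3e, the ligand of Plxnd1, read 88.1 and 93.6 in mutants and 79.3 and 69.1 in controls (log2 fold change 0.27, limma adjusted p = 0.404). Sema3b and Sema3g had log2 fold changes of 0.01 and -0.06, with groups that overlap.

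Among the transmembrane semaphorins Sema6d fell most. Sema6d, a ligand of Plxna1, read 478 and 399 in mutants and 1228 and 1449 in controls. Its mutant mean of 439 ± 55.6 stood against a control mean of 1338 ± 156 (SD, n = 2 each), a log2 fold change of -1.59 (SE 0.14, limma adjusted p = 0.00168). Its second tested probe set gave -1.03 (limma adjusted p = 0.0307). A further pair of dim probe sets had both mutants below both controls as well, and the call held without any 1 array, at -1.72 to -1.47. Sema6a and Sema6c did not pass, with log2 fold changes of -0.01 and 0.35. Sema6b was under the filter, at 6.75 and 15.3 in mutants and 26.3 and 26.9 in controls.

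The class 4 and class 5 semaphorins did not pass by their brightest probe sets. Sema4a, which is known for acting on immune cells, read 77.3 and 80.8 in mutants and 101 and 147 in controls on its brightest probe set, whose suffix again marks possible shared sequence (log2 fold change -0.58, limma adjusted p = 0.163). That probe set passed without control replicate 1 (limma adjusted p = 0.0388). Its second probe set read 34.7 and 50.3 in mutants and 88.1 and 115 in controls and passed, with -1.13 (limma adjusted p = 0.0377). Sema4d, the ligand of Plxnb1, read 77.8 and 84.2 in mutants and 125 and 121 in controls (log2 fold change -0.56, limma adjusted p = 0.0874). Sema4b, Sema4c and Sema4g ran from -0.38 to 0.23, and Sema5a and Sema5b had -0.13 and 0.31. Sema4f was under the filter.

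No Slit or Robo gene passed. Slit2, the best known ligand of the family, read 260.2 and 222 in mutants and 334 and 261 in controls on its brightest probe set (log2 fold change -0.29, limma adjusted p = 0.346). Its second tested probe set pointed the other way, with 99.3 and 99.9 in mutants and 66.5 and 52.9 in controls (log2 fold change 0.68, limma adjusted p = 0.0807). Slit3 gave -0.34 (limma adjusted p = 0.352). Robo1, a receptor for Slits, read 538 and 481 in mutants and 366 and 434 in controls (log2 fold change 0.35, limma adjusted p = 0.181). Robo2 and the endothelial Robo4 had groups that overlap, and Slit1 and Robo3 lay under the filter. The 5 tested Slit and Robo genes had a median of -0.15, against -0.02 over all named genes.

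**Figure D3:**
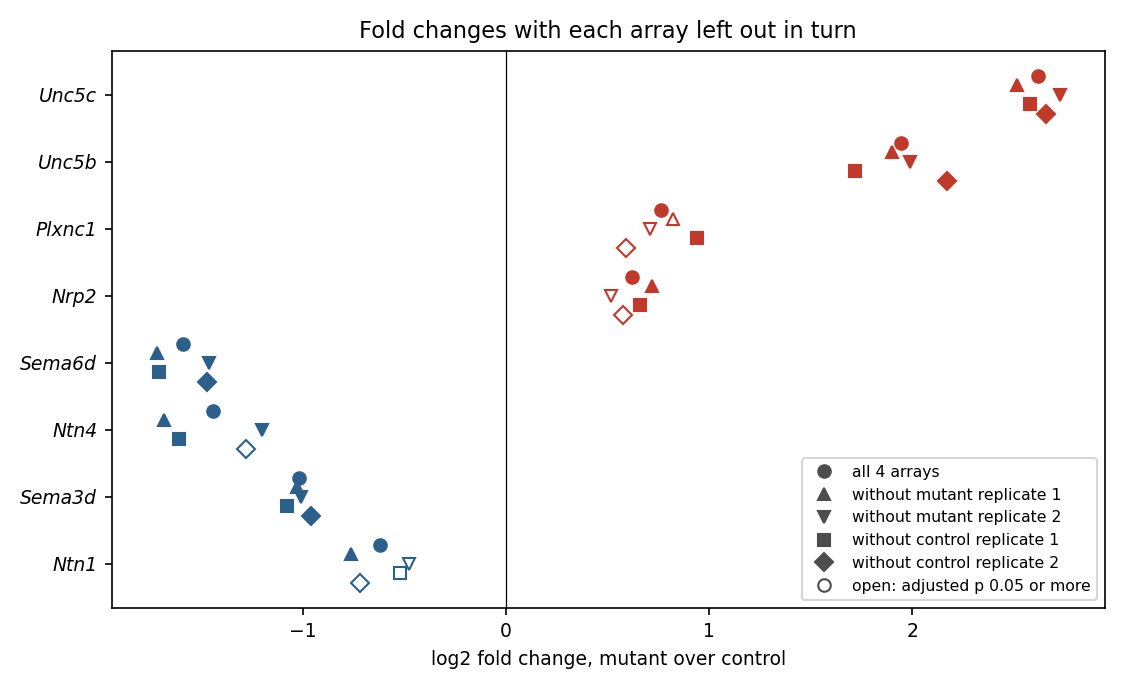
Log2 fold changes of mutant over control skin for the 8 called genes with all 4 arrays and with each array left out in turn, filled where the limma adjusted p is under 0.05 and open where it is not. On the scale of the whole array no sign changes. The markers of Unc5c, Unc5b, Sema6d and Sema3d are all filled, and those of Plxnc1, Nrp2, Ntn4 and Ntn1 are open without 1 or more of the arrays.

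The genes next to the 8 called genes on the chromosome were read for comparison. Among 16 neighbour places in the reference order, 11 held a gene with a tested probe set. By the probe set of highest mean signal 0 of them rose and 1 fell, against 4.96% and 3.78% of all named genes tested. Sema3a, beside Sema3d, is among the 11 and is itself a guidance gene, and another of its probe sets passed as higher. The gene that fell was Bmpr1b, a BMP receptor beside Unc5c, at 38.7 and 36.9 in mutants and 73.8 and 106 in controls (log2 fold change -1.08, limma adjusted p = 0.0366). Unc5c and Bmpr1b thus went in opposite directions.

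Partners and signal transducers of these receptors were read from a list of 89 genes, 85 of which matched a probe set. Of 72 tested, 5 rose and 8 fell, which is 6.94% and 11.1%, against 4.96% and 3.78% of all named genes. The list was written with earlier results of these data known, so these shares are a description only. The list's median log2 fold change was -0.06. The listed repulsive guidance molecules Rgmb and Rgma, which bind Neo1 and act as BMP co-receptors, both fell. Rgmb read 130 and 107 in mutants and 346 and 328 in controls (log2 fold change -1.46, limma adjusted p = 0.00281), and Rgma fell by 1.24 on the log2 scale (limma adjusted p = 0.0124). The adhesion molecules Nrcam and Chl1 of the L1 family, which associate with neuropilins, fell as well. Nrcam read 38.5 and 37.8 in mutants and 124 and 150.1 in controls (log2 fold change -1.65, limma adjusted p = 0.00420), and Chl1 fell by 1.12 on the log2 scale (limma adjusted p = 0.0297). Their relative L1cam did not pass (log2 fold change -0.71, limma adjusted p = 0.122). Of the FLRT adhesion proteins, which bind Unc5 receptors, Flrt2 rose, Flrt1 fell and Flrt3 did not pass. Flrt2 read 1213 and 1122 in mutants and 737 and 763 in controls (log2 fold change 0.63, limma adjusted p = 0.0170), and Flrt1 fell by 1.12 on the log2 scale (limma adjusted p = 0.0296). Flrt3 read 428 and 415 in mutants and 565 and 719 in controls (log2 fold change -0.59, limma adjusted p = 0.0562).

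The list's largest fall was that of Lrig1, an inhibitor of growth factor receptors, with 195 and 122 in mutants and 623 and 858 in controls (log2 fold change -2.19, limma adjusted p = 0.00427). Its largest rise was that of Bmp2, a BMP ligand that repulsive guidance molecules also bind, with 517 and 569 in mutants and 168 and 86.2 in controls (log2 fold change 2.10, limma adjusted p = 0.00802). The formin Fhod3 rose by 1.03, the glypican Gpc3 by 0.81 and Rras, a GTPase that plexins inactivate, by 0.57. Ablim1, an actin-binding LIM protein, fell by 0.95 and the pseudokinase Ptk7 by 0.71. Without single arrays several of these calls ended: Ablim1 and Flrt2 without mutant replicate 1 (limma adjusted p = 0.0615 and 0.0855), Chl1 and Fhod3 without mutant replicate 1 (0.0725 and 0.159) or control replicate 2 (0.0805 and 0.0724), Flrt1 without mutant replicate 2 (0.114) or control replicate 1 (0.0617). Ptk7 and Rras lost theirs without mutant replicate 1 (0.0730 and 0.126), mutant replicate 2 (0.163 and 0.192) or control replicate 2 (0.113 and 0.0991).

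**Figure D4:**
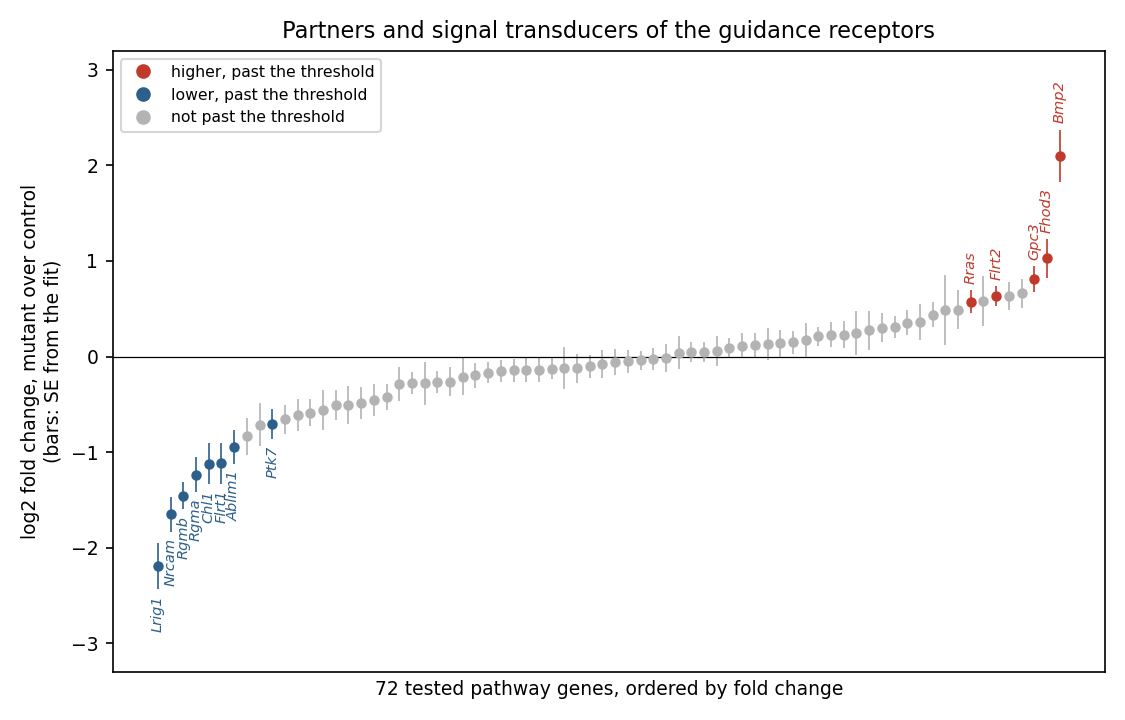
Log2 fold changes of mutant over control skin for the 72 tested partners and signal transducers, in order of fold change, with bars of 1 SE from the fit. The 5 that rose and the 8 that fell are named, from Bmp2 at 2.10 to Lrig1 at -2.19, on the scale of the whole array.

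Markers of cells that carry or meet these cues were read beside them. Of 14 nerve and Schwann cell markers 12 matched, with summed signals of 1971 and 2066 in mutants and 2229 and 2106 in controls. Of these Tubb3 and S100b rose, and Erbb3 fell. Tubb3 had a control mean of 23.2, under the filter, and was tested through its mutant signal alone. The median log2 fold change of the 11 tested was -0.55. Without passing, Sox10, Foxd3, Mbp, Stmn2 and Ngfr had both mutants below both controls, and Nefl and Nefm had both above. The 8 endothelial markers summed to 2900.2 and 2977 in mutants and 2444 and 2338 in controls, with Tek the one that rose. The 5 macrophage markers summed to 3739 and 4428 in mutants and 2780.2 and 2134 in controls, and Adgre1, Lyz2 and Mrc1 rose. The 6 dermal fibroblast markers summed to 29485 and 25276 in mutants and 34634 and 29876 in controls, and none passed. Skeletal muscle markers summed to 5561 and 3477 in mutants and 9736 and 7281 in controls, and 2 of 6 fell. Basal keratinocyte markers summed to 2868 and 4374 in mutants and 6179 and 9198 in controls, and 2 of 5 fell. In whole skin, fewer cells of a type and less RNA per cell cannot be told apart, and the part of these shifts in the guidance genes was not tested.

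The authors' deposited table of changed probe sets, 169 in number, lists 8 probe sets of 5 guidance genes. The 8 include an Unc5c probe set without a name in the platform annotation. By that annotation 109 of all 45037 probe sets are of guidance genes. Of the 8 genes called here Sema6d, Ntn4, Plxnc1 and Ntn1 are not listed there. It gives folds of mutant over control of 87.39 and 51.81 for the Unc5c probe sets described above and 5.918 for Unc5b. For Nrp2 the authors' deposited table gives 2.818 and 2.498, neither for the probe set of highest mean signal. For Sema3d it gives 0.44 and for Sema3f 0.334, again in the authors' deposited table. These folds come from another processing of the arrays, so their sizes are not those of the signals used here.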

How the data were processed

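RNA of 2 mutant and 2 control embryonic skins was measured on Affymetrix mouse 430 2.0 arrays. The authors deposited linear signal intensities, 1 for each probe set on an array, computed with GCOS and MAS5 per the submitters' processing notes, with versions and scaling target not given in the sources used here. The authors' deposited table gives a GCRMA-based fold ratio, per the file headers for probe sets Present on at least 2 of 4 arrays, with an uncorrected p under 0.01 and at least 2-fold change. Control probe sets were left out. Intensities were taken as log2(signal + 7.7), the offset being percentile 25 of all values, so that fold changes of dim genes are understated. Probe sets with a mean signal of at least 31.1, the median, were tested (22519 in all, of which 1583 or 7.03% passed) with limma 3.58.1 in R 4.3.3, with a variance trend and Benjamini-Hochberg adjustment at 0.05. Precision is limited by having 2 arrays in each group. The fit was tested on simulated data.

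Gene names came from the platform annotation, which gives 1 symbol for 34945 probe sets, several for 932 and none for 9160. Probe sets with several symbols or none were not used for named genes. Every guidance gene could be named, those past the threshold or with disagreeing probe sets with their signals, as could each partner past the threshold. The members, the partner list and the marker lists were chosen with earlier results of these data known. Alternatives were other offsets, filters, normalizations and variance models, a replicate block, averaging over a gene's probe sets and leaving out each array.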

Additional observations from a re-analysis of the deposited data

How the results depend on the processing

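Over 13 alternatives the 8 called guidance genes gave 103 values, of which 84 kept direction and call, 19 lost the call and 0 changed sign. Unc5c, Unc5b, Sema6d and Sema3d kept theirs under every alternative that tested them. None of the 13 alternatives used the scale of the poly-A spikes, on which Sema3d and Ntn1 would not be lower. Besides the arrays named above, no filter ended the calls of Nrp2, Plxnc1, Ntn1 and Ntn4, no variance trend those of Nrp2, Plxnc1 and Ntn1, median centring that of Nrp2, and quantile normalization or an offset of 1 that of Ntn1. The 13 called partners gave 166 values, of which 137 kept their call, 29 lost it and 0 changed sign.

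The 1583 probe sets called over the whole array became 880 with no filter and 982 to 2171 with 1 array left out. The 4 guidance genes called higher became 2 with no filter, 2 without the variance trend and 2 to 5 with 1 array left out. The 4 called lower became 2 with no filter, 7 when probe sets were averaged and 2 to 4 with 1 array left out. The 5 partners called higher became 2 with no filter, 3 without the trend and 2 to 5 with 1 array left out, and the 8 called lower became 4 with no filter, 5 at a mean signal of at least 100, 5 without the trend and 5 to 10 with 1 array left out. With no filter more probe sets are tested; the cause of the other shifts was not tested.

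The replicate numbers come from the sample names and nothing links them to a litter or day. The difference between the mutants and that between the controls correlated with r = 0.16 over tested probe sets, with 2 pairs. With the replicate number as a block 2441 probe sets were called, with 5 guidance genes higher and 4 lower (Sema3a was added, adjusted p = 0.0248 in limma) and 8 partners higher and 11 lower.

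Among the 32 uncalled guidance genes 15 of 402 values changed sign, in 8 genes. Sema3b gave -0.0668 under quantile normalization and -0.0577 under median centring, and Plxnd1 -0.0248 under median centring. The others came from leaving out 1 array, where the log2 fold change ran from -0.13 to 0.14 for Sema3b, from -0.196 to 0.0691 for Sema3g, from -0.44 to 0.18 for Sema5a, from -0.200 to 0.19 for Sema6a, from -0.187 to 0.0687 for Plxnb2, from -0.12 to 0.197 for Plxnd1, from -0.55 to 0.26 for Robo2 and from -0.21 to 0.0956 for Robo4.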

Other observations

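The authors' deposited table names a further Unc5c probe set, with a fold of 16.22, that has no gene name in the platform annotation and so was not counted above. Its signals were 78.9 and 54.0 in mutant skin and 2.35 and 3.45 in control skin, with both mutants above both controls, as on the other Unc5c probe sets.

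Among the partners, the authors' deposited table lists 4 probe sets. Those of Nrcam have folds of 0.16 and 0.0893, and that of Rgmb, which is not the one read above, has 0.126. The last is of Pak1, a kinase downstream of Rac, with a fold of 2.209, and has no name in the platform annotation. The Pak1 signals were 144 and 135 in mutant skin and 81.8 and 72.5 in control skin. The smooth muscle gene Tagln read 718 and 839 in mutant skin and 169 and 190 in control skin (log2 fold change 2.07, limma adjusted p = 0.000614), and Acta2 read 2275 and 2006 in mutant skin and 1984 and 1520 in control skin and did not pass.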
